A study of Mus musculus with 6 samples.

Results

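The enzymes that carry glucose through glycolysis to pyruvate, and those that decide what becomes of the pyruvate, were followed in the retinas of wild-type and Vldlr knockout mice. A set of 37 genes was listed by function, and every probe that the platform annotation names for 1 of them was taken. The list was made with earlier results of these data known, so comparisons of the set with all probes are not blind to them. These were 58 of the 45281 probes on the array, for 33 of the 37 genes, out of 19057 genes named on the array. Hk2, Gpi1, Eno1 and Pfkfb1 had no probe under those symbols in the annotation used here and were not analysed. A probe was tested where it was detected above background (detection p under 0.05) on at least 3 of the 6 arrays. This left 45 probes for 28 genes, and 13 probes were not tested. Pgm2, Pfkfb3, Ldhb, Pdk4 and Gpd1 had probes but none that was tested.

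Total retinal RNA was hybridised to Illumina BeadChips with 1 colour, 1 array per sample. There were 3 wild-type arrays, whose source is labelled Jax WT, and 3 arrays from mice labelled Vldlr knockout. Both groups carry the background strain entry JAX, which names no strain, so a difference in strain cannot be told apart from the genotype. The sources used here do not give age, sex or how the gene was disrupted. The labels do not state that each sample is a different animal. The p-values therefore reflect the spread from sample to sample, part or all of which could be technical. The comparison asks which transcripts differ between retinas with and without Vldlr, the very low density lipoprotein receptor.

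Glycolysis splits glucose into pyruvate. Phosphofructokinase sets much of the pace, and pyruvate kinase makes the last step. Pyruvate is then reduced to lactate by lactate dehydrogenase, or enters mitochondria, where the pyruvate dehydrogenase complex turns it into acetyl-CoA. The retina is known for making much lactate even when oxygen is plentiful, and most of that is attributed to photoreceptors.

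The arrays detected 18710 to 20974 probes each (41.3% to 46.3%). Among the probes of Vldlr itself, 3 were lower in the knockout (limma, log2 change -1.17, -1.22 and -1.26, adjusted p = 0.00946, 0.0334 and 0.0265) at 41.8% to 44.3% of the wild-type level. The first of these lost its call under 5 of 18 other processing choices (adjusted p up to 0.125), with changes from -1.26 to -1.001. A further 2 dim Vldlr probes had changes of 0.23 and 0.02 with adjusted p = 0.857 and 0.992, and 1 was not tested. Whether these probes lie inside or outside the disrupted region is unknown here, so they check the labels only in part. Of 15 rod photoreceptor markers, 12 genes were measured, and their median log2 signal was 12.18 to 12.36 on wild-type and 12.44 to 12.98 on knockout arrays. Lens transcripts varied between arrays of the same group: their summed signal was 8834, 1500 and 8723 on wild-type replicates 1 to 3 and 58255, 3312 and 4073 on knockout replicates 1 to 3. Wild-type replicate 1 had a higher median correlation with the knockout arrays (0.977) than with the other wild-type arrays (0.971), across all tested probes.

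In the knockout, 1 probe of pyruvate kinase (Pkm) was at 34.6% of the wild-type level and 1 probe of phosphoglucomutase (Pgm1) at 54.3%. No probe of the set was called higher. Calls here are limma calls at a Benjamini-Hochberg adjusted p under 0.05, with the adjustment made over all 19921 tested probes. Among those, 130 probes (0.653%) were called higher and 305 (1.53%) lower, against 0 and 2 of the 45 enzyme probes. Most other enzyme probes had small positive changes: 34 of 45 were above 0 (75.6%, against 53.8% of all tested probes), and the median change was 0.25 log2, against 0.03 over all tested probes. With 1 probe per gene these medians were 0.06 and 0.02, and 20 of 28 enzyme probes were above 0. At an unadjusted p under 0.05, 10 of the 45 were higher and 3 lower, beside 5.68% and 6.06% of all tested probes. The 3 knockout arrays lay entirely above the 3 wild-type arrays for 12 of the 45 and entirely below for 3, beside 9.28% and 8.84% of all tested probes. Knockout replicate 3 gave the highest knockout value for 9 of the 10 probes that were higher at an unadjusted p under 0.05, and for 21 of the 34 positive probes. The same array was highest of the knockout arrays for 36.5% of all tested probes. Without knockout replicate 3, 2 of 44 enzyme probes were higher at that unadjusted threshold, beside 4.60% of all tested probes. Without wild-type replicate 2 it was 2 of 45, beside 4.91%. Both shares are near those of all probes. Leaving out wild-type replicate 1 gave 7 of 45 (beside 7.67%), and wild-type replicate 3 gave 11 of 44 (beside 7.41%). Leaving out knockout replicate 1 gave 5 of 45 (beside 3.83%), and knockout replicate 2 gave 5 of 44 (beside 3.56%). In bulk tissue, fewer cells of a type and less RNA per cell cannot be told apart.

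**Figure D1:**
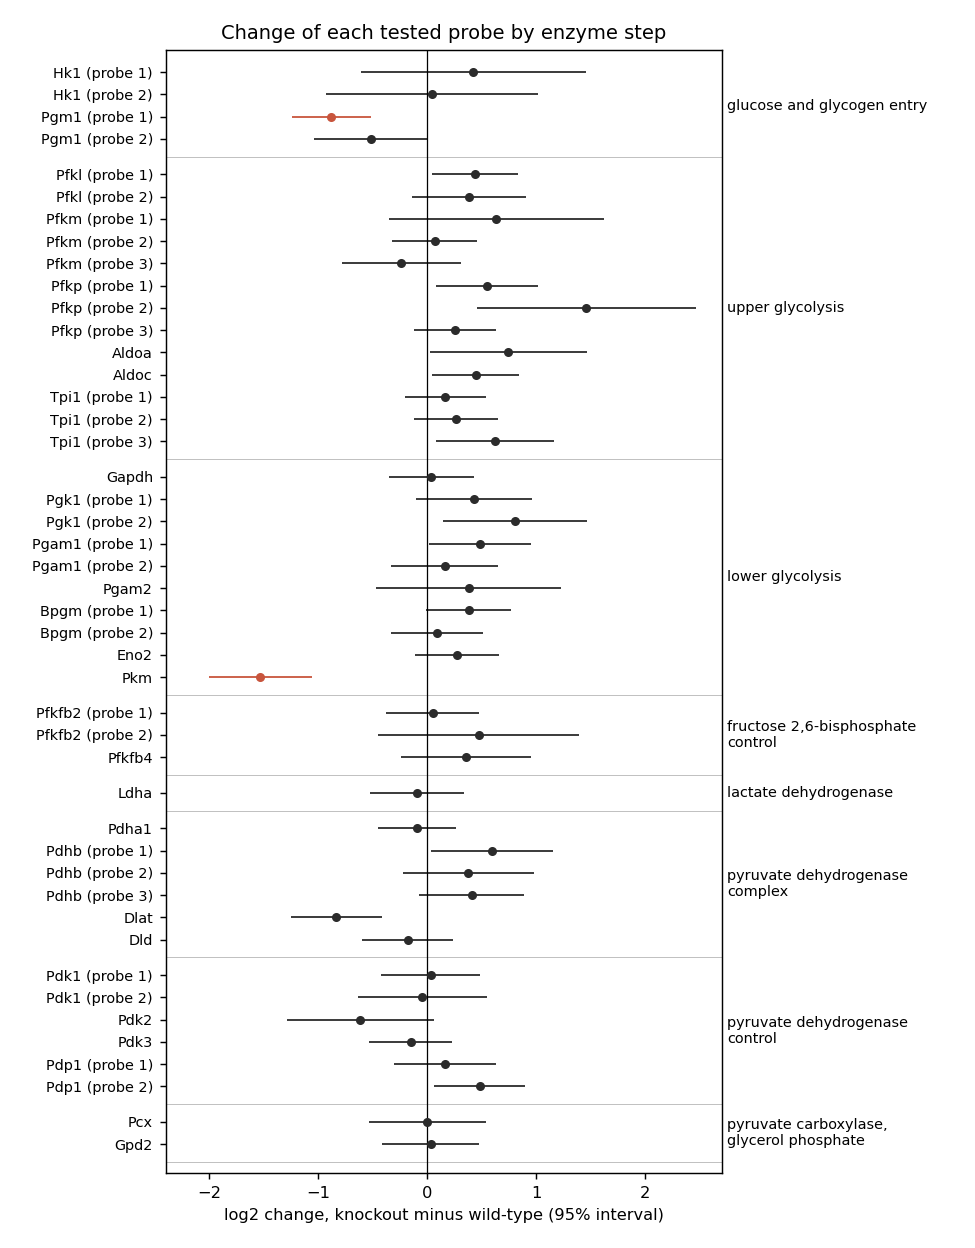
Log2 change (knockout minus wild-type) of each of the 45 tested probes with its 95% interval from limma, grouped by enzyme step, with the called probes in red. The Pkm probe at -1.53 and the first Pgm1 probe at -0.88 are the called ones, and 12 of the 13 upper glycolysis probes lie to the right of 0.

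In the plot of changes by enzyme step, a gene's tested probes are numbered in the order of their identifiers. The probes of upper glycolysis had a median change of 0.44 and those of lower glycolysis 0.33. The 4 probes of glucose and glycogen entry had a median of -0.24. The pyruvate dehydrogenase complex had a median of 0.14 and its control enzymes -0.01.

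The promoter sequences of Pkm and Pgm1 are shown because these 2 genes had the called probes of the set. RefSeq (GRCm38.p6) gives the 250 bases before the first Pkm start at chr9:59656326-59656575 and those before the Pgm1 start at chr4:99929201-99929450, both on the plus strand. Capitals mark ACGTG, on either strand, the core that hypoxia-inducible factors bind, which also lies inside the E-box CACGTG.
Pkm promoter: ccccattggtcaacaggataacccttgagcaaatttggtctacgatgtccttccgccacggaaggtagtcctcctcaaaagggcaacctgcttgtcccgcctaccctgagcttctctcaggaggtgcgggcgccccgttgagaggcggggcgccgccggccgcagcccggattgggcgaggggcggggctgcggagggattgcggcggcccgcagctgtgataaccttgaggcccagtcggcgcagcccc
Pgm1 promoter: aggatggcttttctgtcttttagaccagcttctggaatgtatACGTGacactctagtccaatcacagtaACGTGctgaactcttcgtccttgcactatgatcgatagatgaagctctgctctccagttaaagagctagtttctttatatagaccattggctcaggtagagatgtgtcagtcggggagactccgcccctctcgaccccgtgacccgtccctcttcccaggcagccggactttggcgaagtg
The Pkm window held 0 matches and was 66.4% G or C. The Pgm1 window held 2, starting 208 and 181 bases before the start site, and was 50.4% G or C. A later Pkm start, whose window is not printed here, had 1 match. Over the set, 16 of the 35 genes with a window had at least 1 match, and 20 of 56 windows (35.7%) did, against 5444 of 32851 windows of all genes (16.6%). The full E-box was in 10.7% of the windows of the set and 6.02% of all windows. Median G and C content also differed, at 58.8% and 52.4%. A match is a string of letters and does not show that a factor binds there.

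Phosphoglucomutase moves the phosphate between positions of glucose and so links glycogen to glycolysis. Pgm1 here is the mouse gene that corresponds to human PGM1, and 2 of its probes were tested. For probe ILMN_1230977 the log2 signal was 12.83, 12.89 and 12.92 on wild-type replicates 1 to 3 and 12.10, 12.02 and 11.88 on knockout replicates 1 to 3. All knockout arrays lay below all wild-type arrays. The means were 12.88 ± 0.043 and 12.002 ± 0.109 (SD, n = 3 each), a fall by 0.88 (SE 0.159, 95% interval -1.24 to -0.52, limma adjusted p = 0.0238). This call was lost when any array other than wild-type replicate 3 was left out, with adjusted p from 0.0700 to 0.151 over those 5 fits, while the change stayed between -0.93 and -0.82. For probe ILMN_2788673 the signal was 8.83, 8.87 and 8.19 on wild-type and 8.11, 8.36 and 7.88 on knockout arrays. Its groups overlapped, with a change of -0.52 (SE 0.232, 95% interval -1.04 to 0.01, limma adjusted p = 0.436). The other gene at the entry step, Hk1, encodes the hexokinase that traps glucose in most neural cells. Its 2 probes had changes of 0.42 (limma adjusted p = 0.762) and 0.04 (0.982), with overlapping groups.

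Upper glycolysis converts glucose 6-phosphate into triose phosphates. Its 13 tested probes stood for 6 genes, and 12 had a positive change (92.3%, against 53.8% of all tested probes). None was called, and 6 were higher at an unadjusted p under 0.05, beside 5.68% of all tested probes. Pfkp gave more than 1 of these 6. Phosphofructokinase is the main control point, and it is built from liver (Pfkl), muscle (Pfkm) and platelet (Pfkp) type subunits. Pfkl probe ILMN_1236539 gave 11.95, 11.995 and 12.14 on wild-type and 12.30, 12.43 and 12.68 on knockout arrays, with no overlap, a change of 0.44 (SE 0.174, limma adjusted p = 0.363). The other Pfkl probe had a change of 0.39 (limma adjusted p = 0.555). Pfkp probe ILMN_2673233 had the widest difference of the set on the positive side. It gave 6.88, 5.94 and 7.46 on wild-type and 7.65, 7.94 and 9.07 on knockout arrays, a change of 1.46 (SE 0.443, 95% interval 0.46 to 2.46, limma adjusted p = 0.204). The groups did not overlap, but the spread within each was wide (SD 0.765 and 0.747). Pfkp probe ILMN_1237695 gave 10.25, 9.99 and 10.67 on wild-type and 10.77, 10.80 and 10.97 on knockout arrays, also with no overlap (change 0.55, SE 0.207, limma adjusted p = 0.337). The remaining Pfkp probe, ILMN_2807702, had a change of 0.25 (limma adjusted p = 0.599). The 3 Pfkm probes differed among themselves, with changes of 0.63, 0.07 and -0.24 (limma adjusted p = 0.618, 0.913 and 0.746) and overlapping groups.

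Aldolase cleaves fructose 1,6-bisphosphate, and triose phosphate isomerase (Tpi1) interconverts the products. The Aldoa probe gave 10.77, 11.09 and 11.31 on wild-type and 11.15, 11.77 and 12.48 on knockout arrays. These groups overlapped, and the change was 0.74 (SE 0.317, limma adjusted p = 0.404). Aldoc encodes the aldolase typical of brain. Aldoc probe ILMN_3160137 gave 11.42, 11.49 and 11.46 on wild-type and 11.84, 11.72 and 12.15 on knockout arrays, with no overlap (change 0.44, SE 0.175, limma adjusted p = 0.364). Tpi1 probe ILMN_2932359 gave 10.44, 10.28 and 10.13 on wild-type and 10.67, 10.62 and 11.42 on knockout arrays, with no overlap (change 0.62, SE 0.239, limma adjusted p = 0.342). Knockout replicate 3 stood above both other knockout arrays in each of these 3 probes. The other Tpi1 probes had changes of 0.16 and 0.26 (limma adjusted p = 0.742 and 0.596).

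Lower glycolysis turns triose phosphates into pyruvate and yields the ATP of the pathway. Its 10 tested probes stood for 7 genes, of which 9 probes had a positive change and 1, that of Pkm, was called lower. Gapdh, which oxidises glyceraldehyde 3-phosphate and is often used as a reference gene, had a change of 0.04 (95% interval -0.35 to 0.42, limma adjusted p = 0.954). Its signal was 12.88, 13.03 and 13.17 on wild-type and 12.95, 13.03 and 13.21 on knockout arrays. Pgk1 makes the first ATP of the pathway. Pgk1 probe ILMN_2797973 gave 6.15, 4.99 and 5.97 on wild-type and 6.59, 6.33 and 6.60 on knockout arrays, with no overlap (change 0.80, SE 0.292, limma adjusted p = 0.316). The other tested Pgk1 probe had a change of 0.43 (limma adjusted p = 0.516). Phosphoglycerate mutase is encoded by Pgam1 in most tissues and by Pgam2 in muscle. Pgam1 probe ILMN_1232278 gave 5.61, 5.50 and 5.15 on wild-type and 5.74, 5.77 and 6.20 on knockout arrays, with no overlap (change 0.48, SE 0.205, limma adjusted p = 0.401). The other Pgam1 probe had a change of 0.16 and the Pgam2 probe 0.38 (limma adjusted p = 0.812 and 0.736). Bpgm, which makes the haemoglobin ligand 2,3-bisphosphoglycerate, had changes of 0.38 and 0.09 (limma adjusted p = 0.435 and 0.887). Eno2, the neuronal enolase, gave 12.54, 12.83 and 12.46 on wild-type and 12.87, 12.85 and 12.93 on knockout arrays. The Eno2 groups did not overlap, but the change of 0.27 did not pass the test (SE 0.171, limma adjusted p = 0.578).

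Pkm encodes pyruvate kinase of muscle and most other tissues, and splicing gives it M1 and M2 forms. Probe ILMN_2756041 gave 12.86, 13.31 and 13.41 on wild-type replicates 1 to 3 and 11.50, 11.56 and 11.92 on knockout replicates 1 to 3. The lowest wild-type array lay above the highest knockout array. The means were 13.19 ± 0.294 and 11.66 ± 0.226 (SD, n = 3 each), and the signal fell by 1.53 (SE 0.210, 95% interval -2.01 to -1.06, limma adjusted p = 0.00497). With each array left out in turn the probe was called every time, with adjusted p from 0.0110 to 0.0372. It was not called in the authors' background-subtracted table, used without normalization between arrays (change -1.46, limma adjusted p = 0.101). Nor was it called when knockout replicate 1 and wild-type replicate 3 were both left out (-1.35, limma adjusted p = 0.0519). The other Pkm probe, ILMN_1236323, was detected on 0 wild-type and 2 knockout arrays and was not tested. Its signal was 4.68, 4.43 and 4.68 on wild-type and 4.93, 4.68 and 4.75 on knockout arrays. The call on Pkm therefore rests on 1 probe. The sources used here do not say which splice form each probe reads, nor how far probes of Pkm, Gapdh, Aldoa, Pgk1, Tpi1 or Ldha also bind near-identical copies of these genes.

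**Figure D2:**
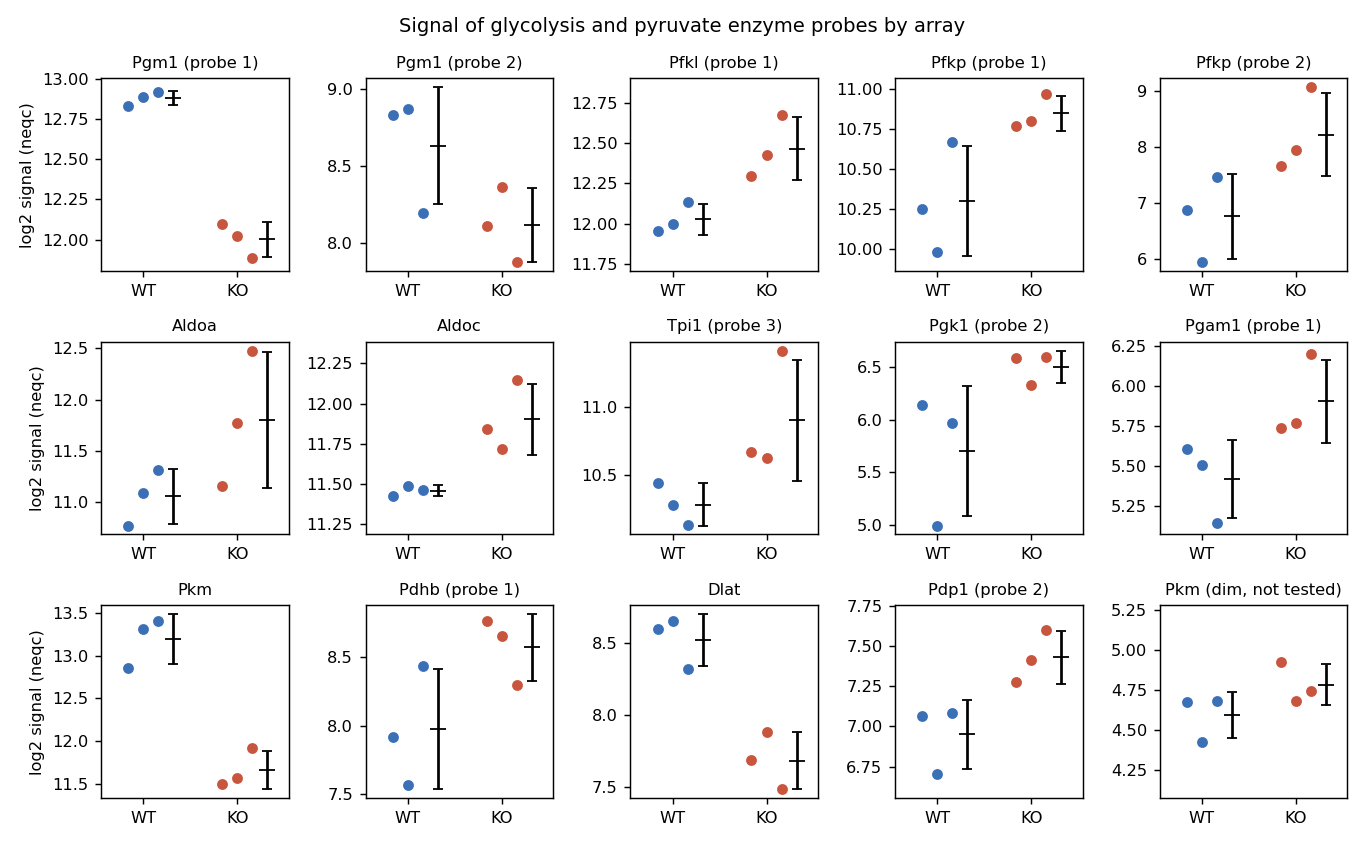
Normalized log2 signal on each array (points, blue wild-type and red knockout, 3 each) with the mean and SD (black) for the 13 probes with an unadjusted p under 0.05 and the remaining Pgm1 and Pkm probes, each panel with its own axis. The Pkm probe, the first Pgm1 probe and Dlat lie lower on every knockout array, while Aldoa and the first Pdhb probe, among the higher ones, overlap between groups.

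The plot of signal by array shows the values given for these probes in the text. Knockout replicate 3 is the right-hand red point of each panel.

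Fructose 2,6-bisphosphate, which activates phosphofructokinase, is made and broken down by the Pfkfb enzymes. The 2 tested Pfkfb2 probes had changes of 0.05 and 0.47 and the Pfkfb4 probe 0.36 (limma adjusted p = 0.944, 0.699 and 0.647), with overlapping groups. Ldha encodes the lactate dehydrogenase subunit that favours lactate production. Its probe gave 12.93, 13.05 and 13.46 on wild-type and 12.96, 13.02 and 13.17 on knockout arrays, a change of -0.09 (95% interval -0.53 to 0.34, limma adjusted p = 0.885). The Ldhb probe was not detected on any array.

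The pyruvate dehydrogenase complex joins an E1 enzyme (Pdha1, Pdhb), the E2 acetyltransferase (Dlat) and the E3 enzyme (Dld). Its probes differed in sign. Dlat gave 8.59, 8.65 and 8.31 on wild-type and 7.69, 7.88 and 7.49 on knockout arrays. All knockout arrays lay below all wild-type arrays, at 56.1% of the wild-type level (change -0.83, SE 0.184, 95% interval -1.25 to -0.42), but the adjusted p of 0.0623 (limma) missed the threshold. Of 18 alternatives, 5 called Dlat, but 1 of these was the same fit with the threshold raised to 0.10, which had to call it. Pdhb probe ILMN_1247561 gave 7.92, 7.57 and 8.44 on wild-type and 8.76, 8.65 and 8.30 on knockout arrays, an overlapping change of 0.60 (SE 0.247, limma adjusted p = 0.390). The other Pdhb probes had changes of 0.38 and 0.41 (limma adjusted p = 0.624 and 0.499). Pdha1 and Dld had changes of -0.09 and -0.18 (limma adjusted p = 0.861 and 0.748).

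**Figure D3:**
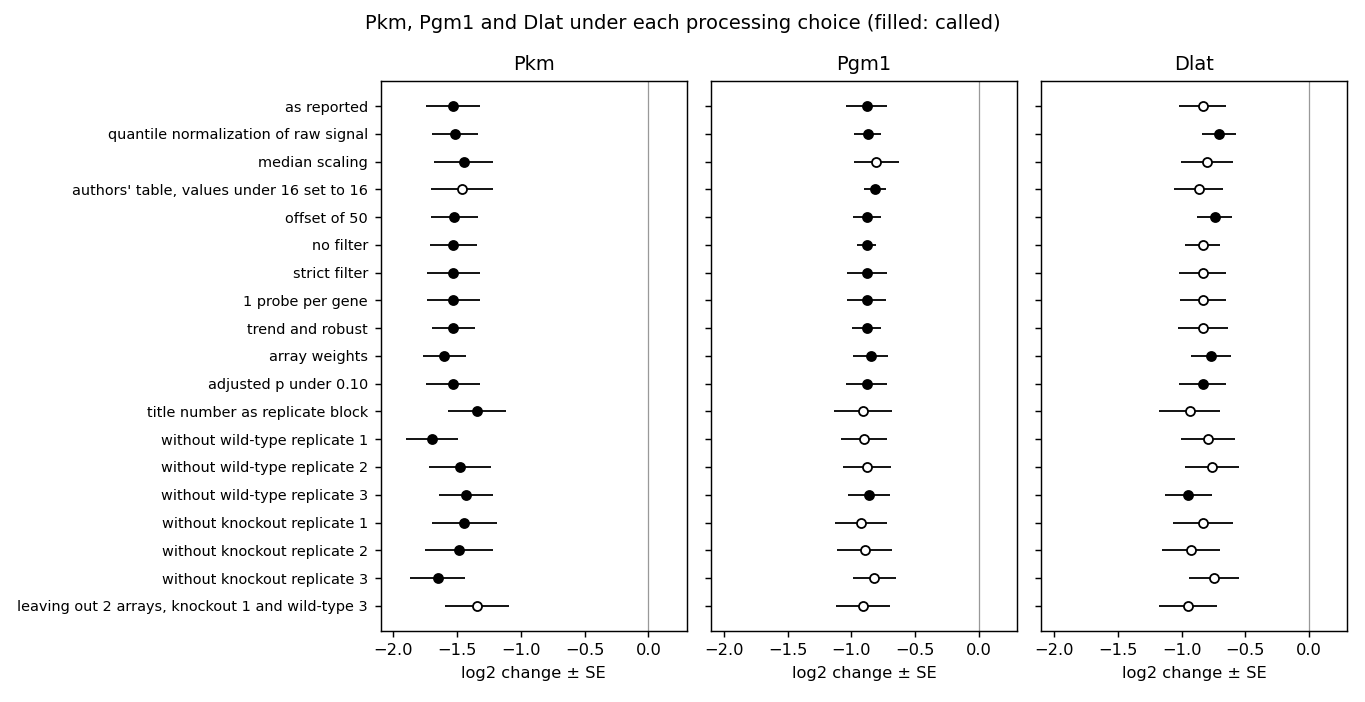
Log2 change with its standard error for the Pkm, Pgm1 and Dlat probes as reported and under 18 other processing choices, filled where the probe was called. Every change lies below 0, and of the 18 other choices 2 did not call Pkm, 8 did not call Pgm1 and 5 called Dlat. Among the 18, 1 is the reported fit at an adjusted p under 0.10, which could only add calls.

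As the plot of processing choices shows, the changes of these 3 probes kept their sign throughout. The change ranged from -1.70 to -1.34 for Pkm, from -0.93 to -0.80 for Pgm1 and from -0.95 to -0.71 for Dlat.

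The kinases Pdk1 to Pdk4 switch pyruvate dehydrogenase off, and the phosphatase Pdp1 switches it on. Pdp1 probe ILMN_3162452 gave 7.06, 6.71 and 7.08 on wild-type and 7.28, 7.41 and 7.60 on knockout arrays, with no overlap (change 0.48, SE 0.185, limma adjusted p = 0.342). The other Pdp1 probe had a change of 0.16 (limma adjusted p = 0.80). Pdk2 had the most negative change among the kinases, -0.61 (SE 0.296, limma adjusted p = 0.467). Its signal was 5.81, 6.73 and 7.07 on wild-type and 6.0, 5.86 and 5.91 on knockout arrays, with wild-type replicate 1 below all 3 knockout arrays and the other wild-type replicates above them. The Pdk1 probes had changes of 0.03 and -0.04 and the Pdk3 probe -0.15 (limma adjusted p = 0.970, 0.965 and 0.770). Pcx, which carboxylates pyruvate to oxaloacetate, had a change of 0.00, and Gpd2, the mitochondrial glycerol phosphate dehydrogenase, 0.03 (limma adjusted p = 0.999 and 0.968).

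Neighbouring enzymes outside the set were counted from lists. Over all tested probes, 0.653% were called higher and 1.53% lower, and the median change was 0.03. Of 36 other glycolysis and pyruvate genes, 16 were measured by 18 probes. Of these probes 0 were called higher and 2 lower, with a median change of -0.04. One was Adpgk, the ADP-dependent glucokinase, with 7.51, 7.76 and 7.90 on wild-type and 6.42, 6.37 and 6.09 on knockout arrays (change -1.43, SE 0.184, limma adjusted p = 0.00349). The other was Me1, the cytosolic malic enzyme that makes pyruvate and NADPH. Me1 was above background on none of the knockout arrays, with measured means of 4.60 log2 there and 6.69 in wild-type (limma adjusted p = 0.000362). With the normalization and offset used here it was at least 3.77-fold lower in the knockout. Under the 14 alternatives that tested Me1 it was always called, with log2 changes from -2.41 to -1.14. Of 18 glycogen genes, 14 were measured by 21 probes, with 0 called higher and 1 lower and a median change of 0.02. That 1 was Pygb, the brain form of glycogen phosphorylase, whose product Pgm1 converts. Pygb gave 8.76, 9.0 and 8.83 on wild-type and 6.73, 6.41 and 7.05 on knockout arrays (change -2.13, SE 0.203, limma adjusted p = 0.000634). Of 14 transcription factors known to drive glycolytic or photoreceptor genes, 13 were measured by 20 probes. None was called, none had an unadjusted p under 0.05, and the median change was 0.10. Hif1a had a change of 0.54 (limma adjusted p = 0.770) and Crx 0.18 (limma adjusted p = 0.716).

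**Figure D4:**
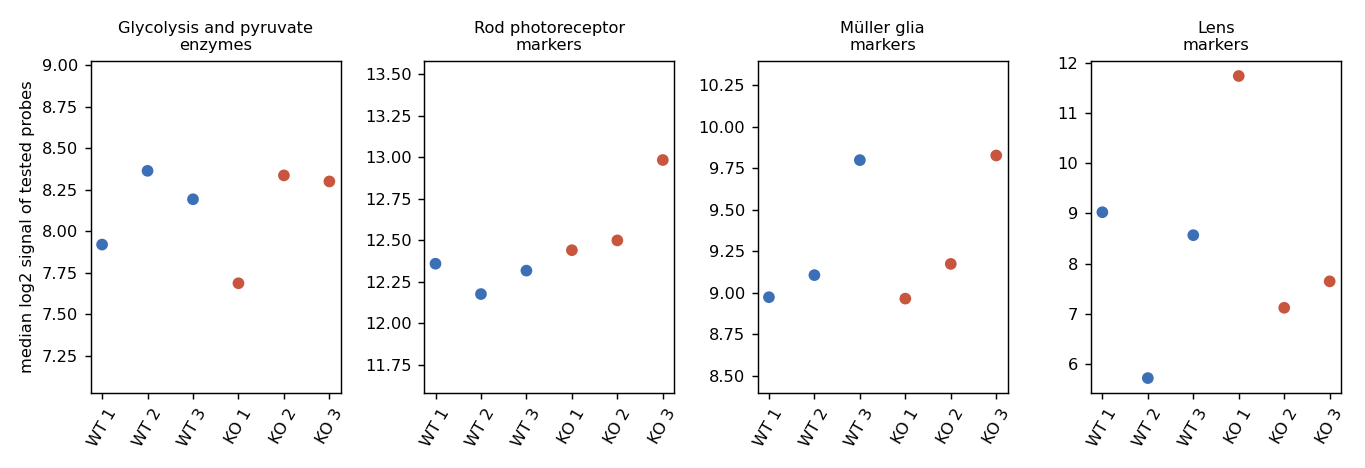
Median log2 signal over the tested probes of the enzyme set and of rod, Müller glia and lens markers on each array (blue wild-type, red knockout), each panel with its own axis. The enzyme medians lie between 7.69 and 8.36 and overlap between groups, the rod medians are higher on all 3 knockout arrays, and the lens median is highest on knockout replicate 1.

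The plot of medians by array sets the enzyme set beside marker lists. The enzyme median was 7.92, 8.36 and 8.19 on wild-type and 7.69, 8.34 and 8.30 on knockout arrays. Rod markers also had mostly positive changes: 13 of 17 rod probes (76.5%) had a positive change, against 53.8% of all tested probes, and the median change was 0.29. Their summed signal was 110068 to 121515 on wild-type and 121707 to 152426 on knockout arrays. The highest sum was that of knockout replicate 3. None of the 17 rod probes was called, and 3 were higher at an unadjusted p under 0.05, beside 5.68% of all tested probes. Cone markers had 8 of 12 probes with a positive change and a median change of 0.26. Of the 12, 3 were called higher (Arr3 by 2 probes, and Gnat2) and 2 lower (both of Pde6c). Over all tested probes, 0.653% were called higher and 1.53% lower. At an unadjusted p under 0.05, 5 of the 12 cone probes were higher and 2 lower, beside 5.68% and 6.06% of all tested probes. Microglial markers had 2 of 13 probes with a positive change and 1 called lower, a probe of Fcrls, beside 1.53% of all tested probes. At an unadjusted p under 0.05, 0 of the 13 were higher and 5 lower, beside 5.68% and 6.06%. For 7 of the 13 all knockout arrays lay below all wild-type arrays, beside 8.84% of all tested probes. The summed microglial signal was 840 to 1173 on wild-type and 651 to 686 on knockout arrays. Of 17 Müller glia probes, 13 had a positive change and 0 were called, with 1 higher and 1 lower at an unadjusted p under 0.05. The part of any of these cell types in the enzyme values was not tested. Erythrocyte, muscle, lens, retinal pigment epithelium and endothelial lists had 0 called probes among 6, 7, 17, 12 and 10, with 1, 1, 0, 1 and 2 at an unadjusted p under 0.05. Their probes with a positive change numbered 6, 4, 16, 3 and 4 in that order, with median changes of 0.42, 0.01, 0.94, -0.12 and -0.04.

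The place of the called genes on the chromosomes was examined after their values were seen. The called genes Pkm, Adpgk and Me1 lie on chromosome 9, Pgm1 on 4 and Pygb on 2. On chromosome 9, 28 of 954 tested probes (2.94%) were called lower, the highest share of any chromosome counted, against 1.53% overall. Chromosomes 15 and 4 came next, with 2.78% and 2.39%. The 28 include the called probes of Pkm, Adpgk and Me1. Among the 10 nearest tested genes on each side of Pkm, measured by 26 probes, 2 genes had a probe called lower and 1 a probe called higher. The lower ones were Adpgk and Cd276 (change -1.08, limma adjusted p = 0.0265), and the higher one was Uaca (change 1.10, limma adjusted p = 0.0429). The 5 tested genes between Adpgk and Pkm (Bbs4, Arih1, Hexa, Celf6 and Parp6) had changes from -0.21 to 0.21 and were not called. Around Pgm1 on chromosome 4, 20 genes measured by 32 probes held 1 called lower and 2 called higher. Over all tested probes, 1.53% were called lower and 0.653% higher. The Sgip1 probe called lower had a change of -1.64, while the other 4 Sgip1 probes had changes of 0.06 to 0.70. Itgb3bp, next to Pgm1 in that order, was higher by 1.47 (limma adjusted p = 0.0289), and Cyp2j13 by 1.45 (limma adjusted p = 0.00271). A difference in background strain at these places was not tested.

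**Figure D5:**
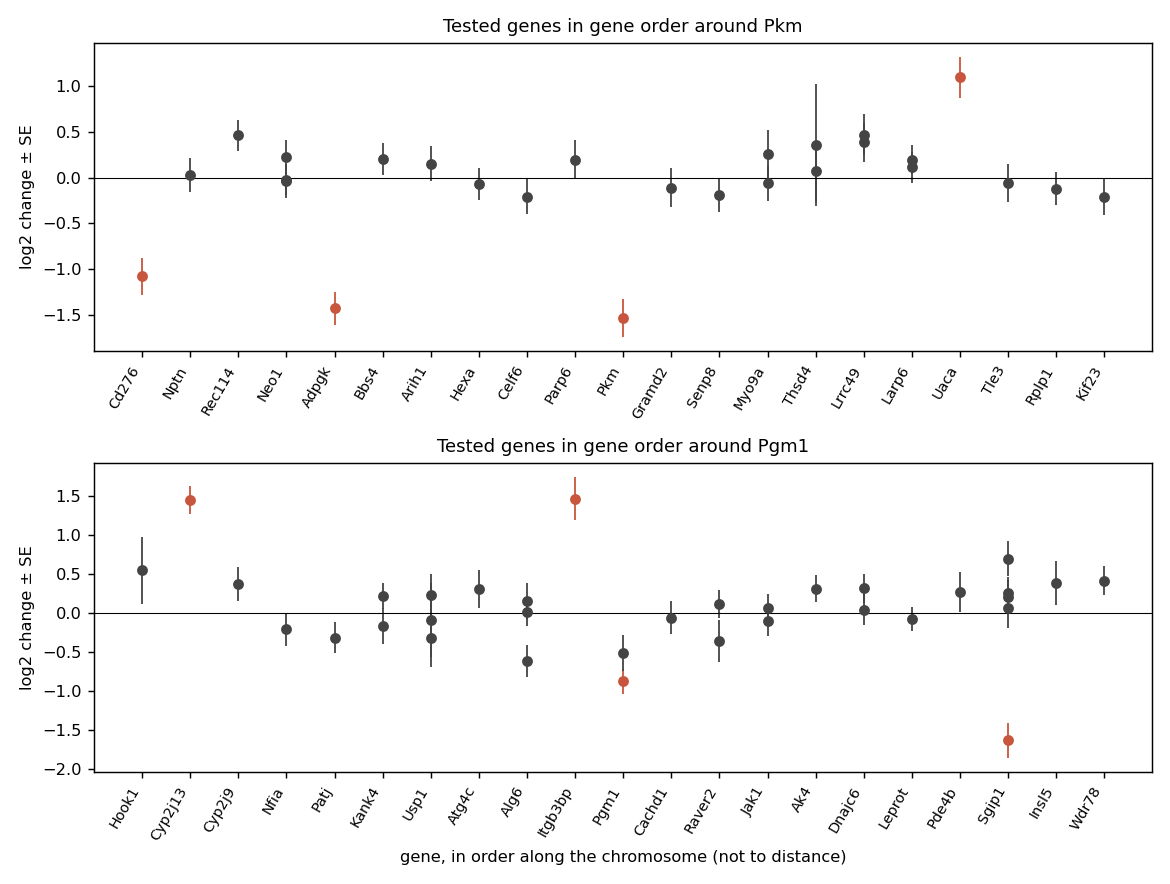
Log2 change with its standard error of each tested probe of the 10 nearest tested genes on each side of Pkm and Pgm1, in gene order and not to distance, with called probes in red. Near Pkm, Adpgk and Cd276 are low and Uaca high, with uncalled genes between them, and near Pgm1 the neighbour Itgb3bp is high.

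In the plot of neighbouring genes, Itgb3bp, called higher, and Pgm1, called lower, stand next to each other. No other called genes in it are adjacent.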

How the data were processed

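Per the labels' protocols, a Qiagen RNeasy Mini Kit gave the RNA, and the Ambion Illumina TotalPrep kit gave biotinylated cRNA. Per the submitters' processing notes GenomeStudio read the arrays. The sources used here do not name its version. Per the file headers, the authors deposited linear, non-normalized intensity values for each probe, and beside each intensity a detection p-value. A further table the authors deposited holds the same intensity values minus 1 constant per array (57.2 to 69.1). It served as an alternative, on the log2 scale, with values under 16 set to 16 and no normalization between arrays.

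The intensities were corrected and quantile normalized with neqc in limma (version 3.58.1, R 4.3.3), with negative control levels taken by neqc from the detection p-values and an offset of 16, and moved to log2. Each probe was its own feature. The groups were compared with lmFit and eBayes (2-sided) on all 6 arrays, with Benjamini-Hochberg adjustment over 19921 probes. The procedure was tested on simulated data with independent normal noise, which leave out any effect shared by the probes of an array. Standard errors are limma's moderated ones. The number of arrays, 3 per group, limits the precision. Probe names come from the platform annotation, where 34885 probes had 1 symbol, 18 several and 10378 none.

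All tested probes of the set are given. Values on every array are given for those with an adjusted or unadjusted p under 0.05 and for all Pkm and Pgm1 probes. Members and lists were chosen with earlier results of these data known. Alternatives were other normalizations, filters, offsets, thresholds, array weights, 1 probe per gene, a block and leaving out arrays.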

Additional observations from a re-analysis of the deposited data

How the results depend on the processing

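The number of enzyme probes called higher was 0 throughout the 18 alternatives, except with array weights, where it was 2 (1 probe each of Pdhb and Pfkp). The number called lower was 2 as reported. It was 1 with median scaling (Pkm), 1 in the authors' background-subtracted table (Pgm1), and 0 with knockout replicate 1 and wild-type replicate 3 both left out, an alternative chosen after seeing the data. Leaving out each array in turn gave 1 to 3, with Pkm called each time, and Dlat and Pgm1 also called without wild-type replicate 3. Quantile normalization of raw signal, an offset of 50, array weights and an adjusted p under 0.10 each gave 3. The median change stayed positive, from 0.06 with 1 probe per gene to 0.30 with median scaling. Fewer arrays left less precision, and the cause was otherwise not tested. Over 783 values of single enzyme probes under the alternatives, 0 called values changed sign, 10 lost and 7 gained a call, and 42 uncalled values of 14 probes changed sign. Adpgk and Pygb lost their call in the authors' table (adjusted p = 0.0624 and 0.0787), where their changes were -1.60 and -2.30, further from 0 than reported. That fit set values under 16 to 16 and did not normalize between arrays.

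Sample titles share the numbers 4 and 5 between groups. Same-numbered samples did not deviate together (r = -0.02 and -0.27), and with this number as a replicate block 1 probe (Pkm) was called lower, and Pgm1 was not (adjusted p = 0.162). Wild-type replicate 3 and knockout replicate 1 each have a number of their own, so under the block they do not inform the change. The block fit therefore rests on the same arrays as the fit with both left out. The calls over all probes numbered 435 as reported, 223 in the authors' table, 282 with the block, 920 with array weights, and 202 to 382 with 1 array left out. Both arrays left out gave 212. Signal near background limits the dim probes: 13 enzyme probes could not be tested.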
